A study of Mus musculus with 6 samples.

Results

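Amino acid transporters of 6 solute carrier (Slc) families were followed in mouse embryonic fibroblasts (MEFs) with and without Yme1l, the gene for the ATP-dependent protease YME1L of the mitochondrial inner membrane. A locus was a member if its symbol was Slc1a, Slc3a, Slc7a, Slc36a, Slc38a or Slc43a followed by a number. No measured value entered this rule, though the set was chosen with earlier results of these data known. The count table lists 51499 loci, of which 41 were members. Sequenced poly(A) RNA was available for 3 WT cultures and 3 Yme1l-/- cultures, and the comparison asks which transcripts differ when YME1L is missing. Both genotypes derive from MEFs of animals carrying Yme1l alleles flanked by loxP sites, and both were immortalized with SV40 large T antigen and passed through transduction with Cre recombinase. Single clones were grown up and sorted by genotype, the WT ones still carrying both floxed alleles. Clone and genotype therefore cannot be told apart here, and how many clones the 3 cultures of a genotype came from is not given in the sources used here. The cells grow in a rich medium with glucose, pyruvate, added non-essential amino acids and serum.

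Amino acid carriers of the plasma membrane work in a few distinct ways. The SLC7 light chains are obligatory exchangers that reach the cell surface bound to a glycoprotein heavy chain of the SLC3 family, whereas sodium-coupled carriers of the SLC1 and SLC38 families load the cell with glutamate, glutamine, alanine or serine that the exchangers can then trade for other amino acids. Members of the SLC36 and SLC38 families also sit on the lysosome, where they export amino acids or report their abundance to the kinase mTORC1. Many of these genes are known targets of ATF4, the transcription factor of the integrated stress response, which binds promoters together with C/EBP proteins.

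The 6 libraries held between 33180867 and 49351107 counted fragments. Yme1l1, the mouse symbol of Yme1l, stood at 191, 192 and 183 CPM (fragments of the gene in every 1e6 of a library, after TMM scaling) in the WT libraries and at 37.9, 38.9 and 40.6 CPM in the Yme1l-/- libraries. The groups were thus far apart, though 20.8% of the WT level was left in Yme1l-/- cultures, with a log2 fold change (Yme1l-/- over WT, ± standard error) of -2.27 ± 0.05 (adjusted p = 2.43e-11). Unless another fit is named, each adjusted p of a gene is from the quasi-likelihood test of edgeR, adjusted by Benjamini and Hochberg's method across the 13867 loci that had enough counts to be tested. Of 10 fibroblast markers 8 were measurable, 1 rose and 6 fell (87.5% called, where 67.7% of all loci tested were called), and their summed level was 10840 to 11400 CPM in WT and 6646 to 7133 CPM in Yme1l-/- cultures, while the defining marker Thy1 had 4 to 6 fragments in WT and 0 in Yme1l-/- libraries and Lum at most 11. Among other cell types, the summed epithelial markers stood at 32.9 to 34.9 CPM in WT and 0.294 to 0.657 CPM in Yme1l-/- libraries, and Krt18, which made up most of the WT sum, had at most 3 fragments in a Yme1l-/- library. The macrophage markers stood at 1.86 to 2.08 and 4.03 to 4.71 CPM, with Adgre1 at 0 throughout, Ptprc at most 1 fragment and Cd68 called higher (log2 fold change 1.04, adjusted p = 4.83e-05). The endothelial (0.827 to 1.38 and 1.63 to 1.98 CPM) and skeletal muscle markers (0.398 to 0.604 and 2.2 to 3.2 CPM) were low. Of the neural markers Sox10 and Gfap summed to at most 0.0919 CPM, while Tubb3 had no locus in the count table and was not measured. Kdr (log2 fold change 0.72, adjusted p = 0.0132) and Des (2.60, adjusted p = 1.32e-06) were called higher. The part of these shifts in the transporter values was not tested, and in bulk RNA fewer cells of a type and less RNA per cell cannot be told apart.

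More transporter transcripts were called higher than lower in Yme1l-/- MEFs. Of the 41 members 26 were expressed enough to be tested, and 20 of these (76.9%) were called at an adjusted p under 0.05, where 67.7% of all loci tested were called. Of the 26, 16 (61.5%) rose, against 33.6% of all loci, and 4 (15.4%) fell, against 34.1% of all loci. Most changes were small: 14 of the 20 were under 2-fold and 6 (23.1%) reached it, where 17.7% of all loci did. Of these, 4 members rose at least 2-fold (15.4%, against 9.10% of all loci) and 2 fell at least 2-fold (7.69%, against 8.63%). The 3 libraries of one genotype lay entirely above those of the other for 21 of the 26 (80.8%, against 71.9% of all loci). The median log2 fold change of the tested members was 0.23, with quartiles of -0.0009 and 0.56, and that of all loci was -0.0041, with quartiles of -0.36 and 0.41. The members that rose at least 2-fold were Slc43a1, Slc43a2, Slc43a3 and Slc1a6, and those that fell at least 2-fold were Slc3a1 and Slc7a2.

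Chromosomes differed in their typical change, which bears on several members. The median log2 fold change of all tested loci of a chromosome ran from -0.44 on chromosome 12 to 0.59 on chromosome 15. When each chromosome's own median was taken out of the fit, the split among the 26 tested members changed from 16 higher and 4 lower to 11 higher and 7 lower. In that fit 8712 loci were called in either direction, against 9387 without the removal. Their split by direction was not counted, so no share of all loci stands beside the 11 and 7. The cause of these chromosome-wide shifts was not tested. Members whose call or direction depended on them are marked as such below.

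**Figure D1:**
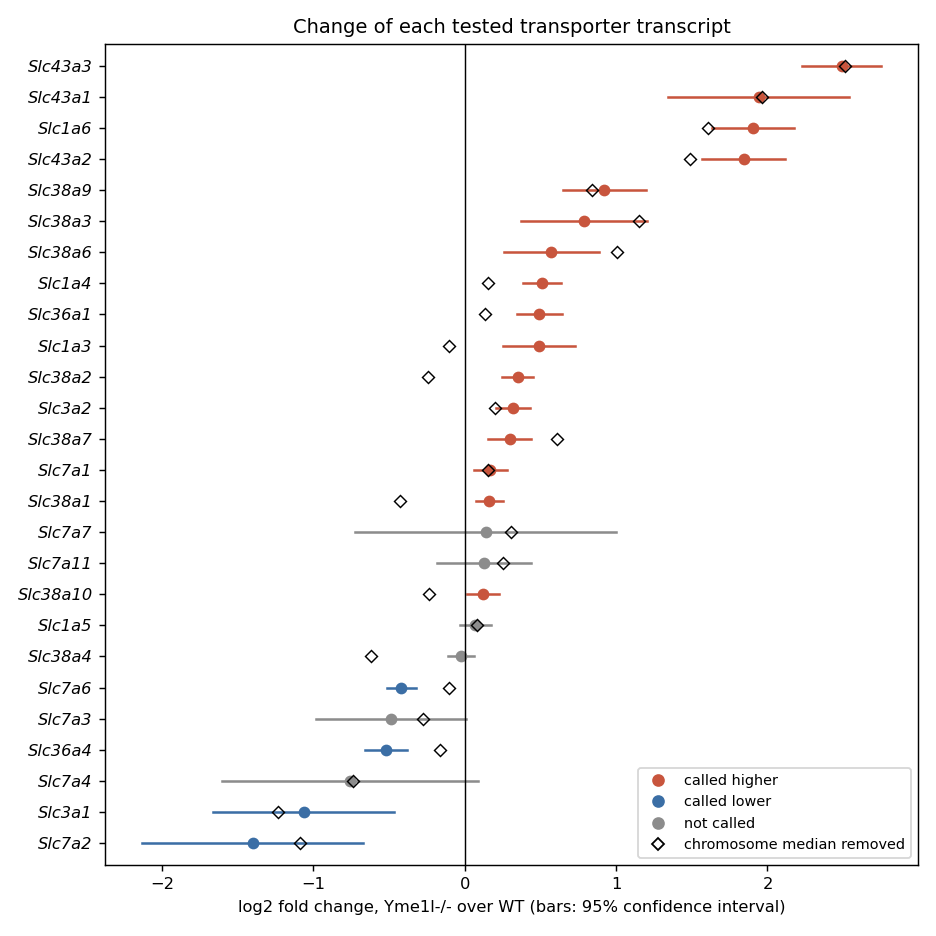
Log2 fold change (x axis, Yme1l-/- over WT) of each of the 26 tested transporters (y axis, sorted), with filled points and bars for the estimate and its 95% confidence interval and open diamonds for the estimate with the chromosome's median removed. Slc43a3, Slc43a1, Slc1a6 and Slc43a2 stand to the right under either estimate, whereas the diamonds of Slc38a1, Slc38a2, Slc38a10 and Slc1a3 fall to the left of 0.

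The remaining 15 members had too few fragments to be tested. No fragment was counted in any library for Slc7a9, Slc7a10, Slc7a12, Slc7a13, Slc7a15, Slc1a1, Slc38a11 and Slc36a3. Slc7a14, Slc1a2, Slc1a7, Slc38a5, Slc38a8 and Slc36a2 had at most 4 fragments in a library, and Slc7a8 had between 4 and 10. These include GLT1 (Slc1a2) and EAAT3 (Slc1a1), glutamate carriers known from brain and epithelia, and Slc7a9, the light chain that pairs with Slc3a1 in kidney and intestine.

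Levels of different genes can be set side by side only per length of transcript, for which the authors' FPKM (fragments scaled to transcript length and library size, a single combined value per genotype without a spread) was used. Among the members Slc3a2 led in WT MEFs with 130 FPKM, followed by Slc38a2 (67.7), Slc38a4 (66.3), Slc7a6 (48.8), Slc38a10 (39.9), Slc1a5 (38.5) and Slc7a1 (30.1). These 7 genes held 87.1% of the summed FPKM of all members in WT and 83.3% in Yme1l-/- MEFs, and the first 3 places were the same in both genotypes. The genes with the largest fold changes thus came from lower in the order. The 3 SLC43 genes summed to 3.33 FPKM in WT and 14.0 FPKM in Yme1l-/- MEFs, and Slc1a6 moved from 4.39 FPKM (place 12) to 16.6 FPKM (place 9). Slc38a6 differed more in the authors' FPKM (1.19 in WT and 2.99 in Yme1l-/- MEFs) than in CPM (2.78 and 4.13), and the cause was not tested.

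**Figure D2:**
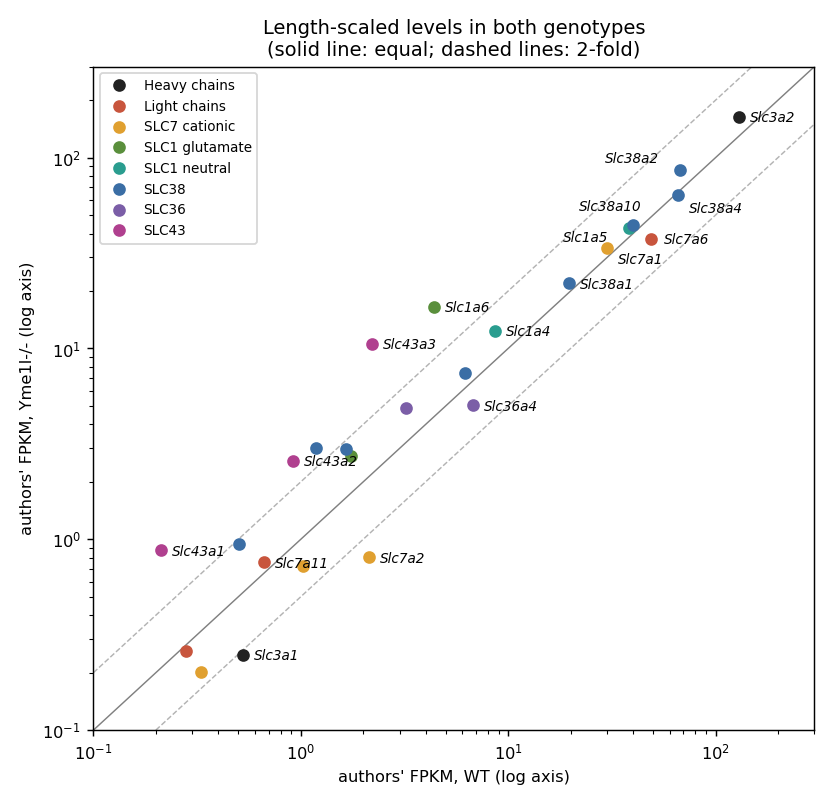
The authors' FPKM of each tested transporter in WT (x axis, log scale) and Yme1l-/- MEFs (y axis, log scale), coloured by family, with a solid line for equal levels and dashed lines for 2-fold changes. The most abundant carriers, from Slc7a1 at 30.1 to Slc3a2 at 130 FPKM in WT, lie close to the solid line, and Slc1a6, Slc38a6 (without a label, at 1.19 and 2.99 FPKM) and the 3 SLC43 genes lie above the upper dashed line.

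The 2 heavy chains went in opposite directions. Slc3a2 (chr19:8706882-8723369, mm10), the CD98 heavy chain that carries most SLC7 exchangers to the surface, stood at 217, 205 and 205 CPM in WT and at 275, 261 and 246 CPM in Yme1l-/- libraries. Every Yme1l-/- library lay above every WT library, and the transcript rose by 0.32 ± 0.05 on the log2 scale (adjusted p = 0.00018). Slc3a1 (ENSMUSG00000024131, chr17:85028347-85090267), the rBAT heavy chain known from kidney and intestine, was a rare transcript at 1.18, 0.855 and 1.44 CPM in WT and 0.429, 0.655 and 0.55 CPM in Yme1l-/- libraries. It fell to 47.8% of WT (-1.06 ± 0.27, adjusted p = 0.00464) on the strength of only 15 to 47 fragments per library. Its exons overlap those of Prepl on the opposite strand, and whether counting used the strand is not stated, so fragments of Prepl may be among them.

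Among the light chains with a locus, the abundant Slc7a6 fell while Slc7a11 and Slc7a7 were not called. No locus of the count table carried the symbol Slc7a5, so that light chain (LAT1) was not assessed. Slc7a6 (chr8:106168857-106198706), known as y+LAT2, exchanges arginine against glutamine and other neutral amino acids, and stood at 140, 137 and 139 CPM in WT and 107, 103 and 101 CPM in Yme1l-/- libraries. The groups were well apart, and the Yme1l-/- level was 74.8% of WT (-0.42 ± 0.04, adjusted p = 5.86e-06). Chromosome 8 had a median of -0.32, and with it removed the change was -0.10 and no longer called (adjusted p = 0.0563). Slc7a11, the xCT chain that imports cystine in exchange for glutamate, stood at 6.56, 7.06 and 4.96 CPM in WT and at 6.06, 6.66 and 7.54 CPM in Yme1l-/- libraries. The groups overlapped, and the log2 fold change of 0.13 ± 0.14 (adjusted p = 0.441) had a 95% confidence interval of -0.18 to 0.44, which leaves out a 2-fold change in either direction. Slc7a7 (y+LAT1) had 9 to 27 fragments per library, overlaps Oxa1l on the opposite strand, and gave 0.14 ± 0.39 (adjusted p = 0.767), an interval too wide to speak of its direction.

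The cationic carriers, which bring in arginine and lysine without a heavy chain, were split. Slc7a1 (CAT1, chr5:148327410-148399904), the most abundant of them, stood at 209, 212 and 217 CPM in WT and 224, 254 and 239 CPM in Yme1l-/- libraries. All Yme1l-/- values were higher, the log2 fold change was 0.17 ± 0.05 (adjusted p = 0.011), and without Yme1l-/- replicate 2 it was 0.12 and no longer called (adjusted p = 0.0644). Slc7a2 (CAT2, ENSMUSG00000031596, chr8:40862395-40922308), the arginine carrier that supplies inducible nitric oxide synthase in macrophages, stood at 8.7, 18.6 and 10.5 CPM in WT and at 4.2, 5.36 and 4.71 CPM in Yme1l-/- libraries. The Yme1l-/- values were all lower, at 37.8% of WT (-1.40 ± 0.30, adjusted p = 0.00567), but the WT libraries were uneven. WT replicate 2, the high one, was the highest WT library in 6 of the 10 fibroblast markers, among them Col3a1 (301 CPM, against 86.3 and 91.1 CPM in the other WT libraries) and Dcn (7.85 CPM, against 1.57 and 1.56 CPM), and the lowest in 3 (Col1a1, Col1a2 and Vim). The part of these differences in the Slc7a2 result was not tested. Without that culture the change of Slc7a2 was -1.01 ± 0.14 (adjusted p = 0.000161), and without Yme1l-/- replicate 1 it was -1.33 and missed the threshold (adjusted p = 0.0558). A lincRNA gene, Gm26584, overlaps its exons on the opposite strand.

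The rarer cationic carriers did not pass the test. Slc7a3 (CAT3) stood at 2.27, 2.44 and 2.42 CPM in WT and 1.06, 2.12 and 1.83 CPM in Yme1l-/- libraries, which did not overlap, with a log2 fold change of -0.49 ± 0.23 (adjusted p = 0.0762). It was called without Yme1l-/- replicate 2, the highest of its group (-0.69, adjusted p = 0.0297), with no filter on low counts (-0.50, adjusted p = 0.0411) and when replicate numbers entered the fit as a block (-0.53, adjusted p = 0.0316). With a culture left out the Slc7a3 value ran from -0.69 to -0.27, and with the chromosome X median removed it was -0.28 (adjusted p = 0.305). Slc7a4 had 7 to 23 fragments per library, overlaps P2rx6 on the opposite strand, and gave -0.76 ± 0.38 (adjusted p = 0.101). It too was called without Yme1l-/- replicate 2 (-1.22, adjusted p = 0.0249).

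**Figure D3:**
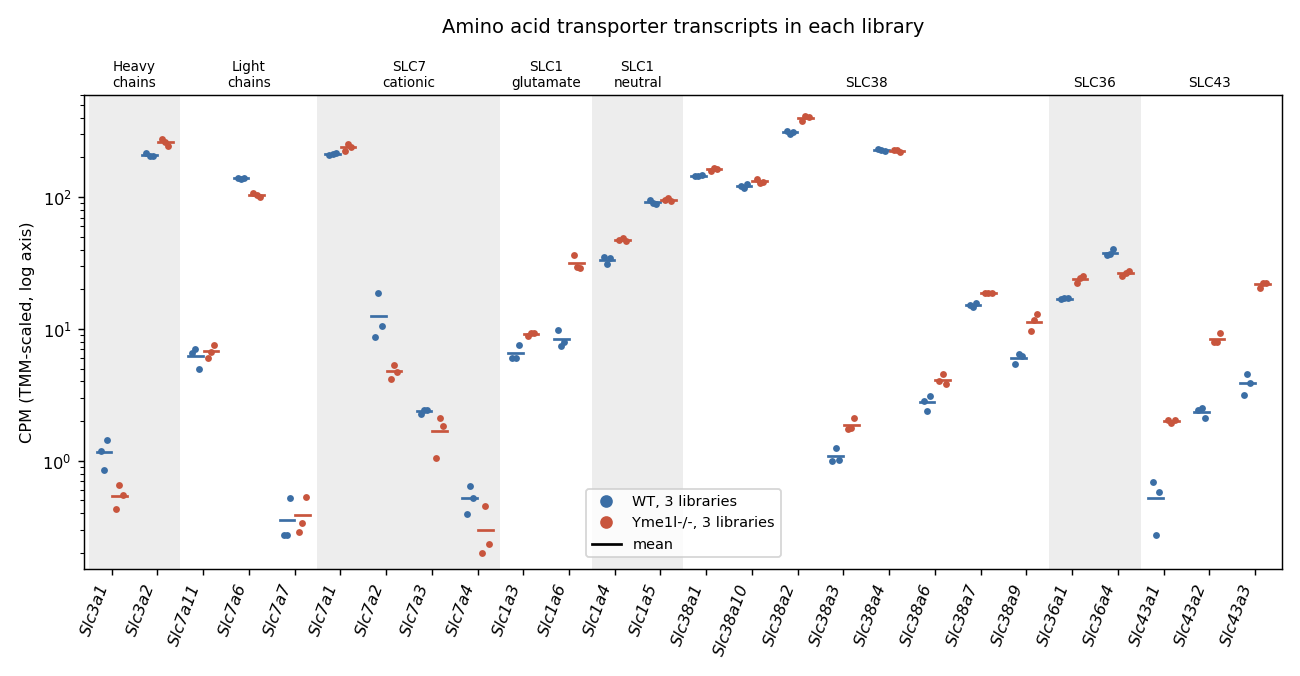
TMM-scaled CPM (y axis, log scale) of the 26 tested transporters in each of the 3 WT and 3 Yme1l-/- libraries, with a line at each group's mean, arranged by family. WT replicate 2 stands out for Slc7a2 at 18.6 CPM, and the WT and Yme1l-/- points of Slc1a6, Slc43a1, Slc43a2 and Slc43a3 are the most widely separated.

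Both glutamate carriers with measurable levels rose, though the direction of Slc1a3 turned with its chromosome's median removed. Slc1a6 (EAAT4, ENSMUSG00000005357, chr10:78780496-78814765), known chiefly from the Purkinje cells of the cerebellum, stood at 9.85, 7.42 and 7.93 CPM in WT and at 36.2, 29.6 and 28.8 CPM in Yme1l-/- libraries. The lowest Yme1l-/- library was far above the highest WT library, and the level rose 3.74-fold (1.90 ± 0.12, adjusted p = 2.73e-07). Of 8 other loci within 100 kb of Slc1a6 only Casp14, a caspase of the epidermis, was expressed enough to be tested, with 0 fragments in every WT library and 71, 140 and 120 in the Yme1l-/- libraries, through which alone it passed the count filter. Slc1a3 (GLAST), the glutamate carrier of astrocytes, averaged 6.53 ± 0.842 CPM in WT and 9.16 ± 0.336 CPM in Yme1l-/- cultures (SD, n = 3 each) and rose by 0.49 ± 0.11 (adjusted p = 0.00186, edgeR). That was less than the 0.59 median of its chromosome 15, and with the median removed the value was -0.10 (adjusted p = 0.428).

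Of the neutral amino acid exchangers of the SLC1 family Slc1a4 was called higher and Slc1a5 was not called, and the difference between them was not tested. Slc1a4 (ASCT1, chr11:20302180-20332713), a carrier of alanine, serine and cysteine, stood at 34.8, 30.9 and 34.4 CPM in WT and 47.2, 48.7 and 46.9 CPM in Yme1l-/- libraries. It rose 1.43-fold without overlap (0.51 ± 0.06, adjusted p = 1.02e-05), and by 0.16 with the chromosome 11 median removed, which was still called. Slc1a5 (ASCT2, chr7:16781340-16798274), the main glutamine exchanger of many dividing cells, stood at 94.3, 89.5 and 89.3 CPM in WT and at 95.3, 98 and 93.6 CPM in Yme1l-/- libraries. The groups overlapped, and its log2 fold change of 0.07 ± 0.05 (adjusted p = 0.188) had a 95% confidence interval of -0.03 to 0.17. With the chromosome 7 median removed it was 0.08 (adjusted p = 0.144). It was called with upper-quartile scaling of the libraries (0.13, adjusted p = 0.0223).

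Slc1a4 and Slc7a11 are both known ATF4 targets, and their promoters are shown beside that of Asns, the asparagine synthetase gene whose promoter has the best known response element of this kind. In windows from 250 bases before to 50 bases after the annotated start (RefSeq, GRCm38.p6), the core of the C/EBP-ATF response element, TGATGNAA on either strand, was found for 3 of the 31 members with a window, and 4.51% of all 27025 genes with a window held it. The stretches below are 70 bases each on the minus strand of GRCm38.p6, written 5′ to 3′ in the gene's direction, with the motif in capitals. They lie at chr3:50443634-50443703 for Slc7a11, chr11:20332710-20332779 for Slc1a4 and chr6:7693220-7693289 for Asns.
Slc7a11: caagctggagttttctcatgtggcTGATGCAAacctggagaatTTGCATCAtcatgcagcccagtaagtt
Slc1a4: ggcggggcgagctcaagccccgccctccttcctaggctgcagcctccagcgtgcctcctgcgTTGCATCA
Asns: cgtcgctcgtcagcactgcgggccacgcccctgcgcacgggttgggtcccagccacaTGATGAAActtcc

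Slc7a11 held 2 matches, starting 66 and 47 bases before the annotated start, one on each strand, and Slc1a4 held 1 match that starts 4 bases before it. Slc7a7 was the other member with the motif. Transcripts of the 3 members with the motif thus ranged from not called (Slc7a11 and Slc7a7) to higher (Slc1a4), whereas Asns itself rose from 92.8 ± 3.53 to 244 ± 11.2 CPM (SD, n = 3 each; 1.39 ± 0.05, adjusted p = 1.03e-09, edgeR). A match of letters is a description and not a bound site.

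In the SLC38 family 7 of the 8 measurable members rose and 0 fell (against 33.6% and 34.1% of all loci tested), with a median log2 fold change of 0.32, but for 3 of the 7 (Slc38a1, Slc38a2 and Slc38a10) the direction turned when the chromosome's median was removed. Slc38a2 (SNAT2, chr15:96687394-96699698), the sodium-coupled carrier of small neutral amino acids that responds to amino acid shortage, stood at 320, 304 and 313 CPM in WT and at 376, 411 and 407 CPM in Yme1l-/- libraries. It rose 1.27-fold without overlap (0.35 ± 0.05, adjusted p = 4.98e-05). Slc38a1 (SNAT1, chr15:96571418-96642913), a glutamine carrier, stood at 144, 145 and 148 CPM in WT and at 159, 165 and 164 CPM in Yme1l-/- libraries. It also rose in all Yme1l-/- libraries (0.16 ± 0.04, adjusted p = 0.00421). Slc38a4 (SNAT4, chr15:96994823-97055956), a relative with similar substrates, stood at 230, 229 and 226 CPM in WT and at 226, 226 and 221 CPM in Yme1l-/- libraries. The groups overlapped, and the 95% confidence interval of its log2 fold change (-0.02 ± 0.04, adjusted p = 0.587) ran from -0.11 to 0.06.

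Slc38a1, Slc38a2 and Slc38a4 lie side by side in a stretch of 484.5 kb on chromosome 15 (chr15:96571418-97055956). The 3 other loci in this stretch were not expressed enough to be tested, and of 10 other loci within 500 kb around it 5 were tested, with 3 higher, 1 lower and a median of 0.50. All 4 tested members on chromosome 15 lay below its median of 0.59. With the median removed Slc38a1 (-0.43, adjusted p = 3.76e-06), Slc38a2 (-0.24, adjusted p = 0.000929) and Slc38a4 (-0.62, adjusted p = 1.16e-07) were all called lower than the chromosome's typical change. Ratios of their fragments within each library are given as a description, without a test, since they were chosen after the values were seen. The ratio of Slc38a2 to Slc38a4 fragments was 1.39, 1.33 and 1.39 in WT and 1.66, 1.82 and 1.84 in Yme1l-/- libraries, and that of Slc38a1 to Slc38a4 was 0.624, 0.634 and 0.657 in WT and 0.704, 0.732 and 0.743 in Yme1l-/- libraries. Neither ratio overlapped between the genotypes.

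Slc38a10 (chr11:120103960-120152341), an abundant and less studied member, was at the edge of the test, and Gm11769 overlaps its exons on the opposite strand. It stood at 121, 118 and 125 CPM in WT and at 138, 127 and 130 CPM in Yme1l-/- libraries, which did not overlap, with a log2 fold change of 0.12 ± 0.05 (adjusted p = 0.0469). The call was lost in 7 of 13 alternative fits, 4 of which left out 1 culture (WT replicates 1 or 2, Yme1l-/- replicates 1 or 3), and with the chromosome 11 median removed the transcript was called lower (-0.24, adjusted p = 0.00112). The 4 less abundant members were called higher as well. Slc38a9, the lysosomal arginine sensor of mTORC1, stood at 5.38, 6.51 and 6.19 CPM in WT and at 9.6, 11.6 and 12.9 CPM in Yme1l-/- libraries. It rose 1.89-fold without overlap (0.92 ± 0.12, adjusted p = 4.98e-05), and an antisense gene, Gm47827, shares exon sequence with it on the opposite strand. Slc38a3 (SNAT3, a glutamine carrier; 0.79 ± 0.19, adjusted p = 0.00307), Slc38a6 (0.57 ± 0.14, adjusted p = 0.00404) and Slc38a7 (SNAT7, the lysosomal glutamine exporter; 0.30 ± 0.06, adjusted p = 0.0016) rose as well. The last 3 lie on chromosomes 9, 12 and 8, whose medians were negative, and their values without the chromosome median were larger (1.15, 1.01 and 0.61).

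The 2 measurable SLC36 members moved in opposite directions. Slc36a1 (PAT1), which carries small neutral amino acids out of the lysosome together with protons, stood at 16.7, 17.1 and 17.2 CPM in WT and at 22.2, 24.4 and 25.2 CPM in Yme1l-/- libraries. It rose by 0.49 ± 0.07 (adjusted p = 5.27e-05), and this call was lost with the chromosome 11 median removed (0.14, adjusted p = 0.0996). Slc36a4 (PAT4), a relative with high affinity for proline and tryptophan, stood at 36.2, 36.8 and 40.7 CPM in WT and at 25.3, 26.5 and 27.4 CPM in Yme1l-/- libraries. It fell to 69.7% of WT without overlap (-0.52 ± 0.06, adjusted p = 1.82e-05), and by 0.16 with the chromosome 9 median removed (adjusted p = 0.0406).

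The 3 members of the SLC43 family all rose more than 3-fold. Slc43a3 (ENSMUSG00000027074, chr2:84936579-84958509) stood at 3.14, 4.58 and 3.92 CPM in WT and at 20.6, 22.4 and 22.5 CPM in Yme1l-/- libraries. The groups were far apart, and the 5.63-fold rise (2.49 ± 0.12, adjusted p = 1.04e-08) was the largest among the members. Unlike its relatives, Slc43a3 is known as a carrier of purine nucleobases rather than of amino acids. Slc43a2 (LAT4, ENSMUSG00000038178, chr11:75530277-75577575), a facilitated carrier of leucine, phenylalanine and other large neutral amino acids, stood at 2.42, 2.51 and 2.11 CPM in WT and at 7.97, 7.99 and 9.3 CPM in Yme1l-/- libraries. It rose 3.59-fold (1.84 ± 0.12, adjusted p = 1.85e-07), with an antisense gene, Gm45606, overlapping its exons. Slc43a1 (LAT3, ENSMUSG00000027075, chr2:84838850-84863594), with the same kind of substrates, had 23, 9 and 19 fragments in WT and 71, 97 and 104 in Yme1l-/- libraries, which corresponds to 0.695, 0.275 and 0.582 CPM and to 2.03, 1.92 and 2.04 CPM. It rose 3.84-fold (1.94 ± 0.27, adjusted p = 6.36e-05), the least precise of the 3 estimates.

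Slc43a1 and Slc43a3 are neighbours on chromosome 2, separated by 73.0 kb, whereas Slc43a2 lies on chromosome 11. The median of chromosome 2 was -0.02, so its removal hardly touched them, and Slc43a2 kept a log2 fold change of 1.49 without the chromosome 11 median of 0.36. Of the 2 loci between Slc43a1 and Slc43a3 only Rtn4rl2, a neuronal receptor gene, was tested. It had 3, 0 and 1 fragments in WT and 22, 34 and 46 in Yme1l-/- libraries, and so passed the count filter only through the Yme1l-/- libraries. Across the 13 alternative fits the estimates ran from 2.36 to 2.63 for Slc43a3, from 1.49 to 1.90 for Slc43a2 and from 1.61 to 2.03 for Slc1a6, and each stayed called. Slc43a1 ran from 1.64 to 2.21 and stayed called in the 12 fits that held it, since WT replicate 2 with 9 fragments left it out where at least 10 counts were required in every library.

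Genes that work with these transporters were counted from the same test. Of 19 other carriers of amino acids at the plasma membrane, lysosome or synaptic vesicle 8 were tested, 5 rose and 0 fell, with a median log2 fold change of 0.58 (62.5% called, against 67.7% of all loci). Those with the largest changes were Slc6a17, a vesicular carrier of neutral amino acids (8.45 to 23.1 CPM, 1.45 ± 0.09, adjusted p = 8.65e-08), the glycine carrier Slc6a9 (16.7 to 36.3 CPM, 1.12 ± 0.07, adjusted p = 1.4e-07) and the aromatic amino acid carrier Slc16a10 (13.1 to 24.7 CPM, 0.92 ± 0.07, adjusted p = 5.46e-07). Among 24 tested enzymes of amino acid synthesis and interconversion 13 rose and 4 fell (70.8% called, against 67.7% of all loci, with a median of 0.30). Cth, which makes cysteine from cystathionine, rose by 1.65 ± 0.07 (adjusted p = 7.4e-09), Asns by 1.39 and Psph, the last enzyme of serine synthesis, by 1.31 ± 0.07 (adjusted p = 1.82e-08).

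Of 16 regulators of the ATF4 pathway 9 rose and 1, Ppp1r15b, fell (62.5% called, against 67.7% of all loci, with a median of 0.34). Trib3, a pseudokinase induced by ATF4, rose from 9.15 to 52.1 CPM (2.51 ± 0.07, adjusted p = 1.53e-10), Ddit3 (CHOP) by 1.97 ± 0.07 (adjusted p = 8.61e-10) and Chac1, which degrades glutathione, by 1.43 ± 0.07 (adjusted p = 1.69e-08). In the lysosomal amino acid sensing list, which holds the Rag GTPases, Ragulator, GATOR complexes, sestrins and mTORC1 itself, 15 of 35 rose and 9 fell (68.6% called, against 67.7% of all loci, with a median of 0.08). Rragb, a Rag GTPase, had 264, 288 and 238 fragments in WT and 4, 2 and 5 fragments in Yme1l-/- libraries. It was called lower but passed the count filter only through the WT libraries, so the size of its fold change is not precise. Kptn (1.18 ± 0.08, adjusted p = 1.46e-07), a part of the KICSTOR complex, and the leucine sensor Sesn2 (1.02 ± 0.07, adjusted p = 1.87e-07) rose.

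**Figure D4:**
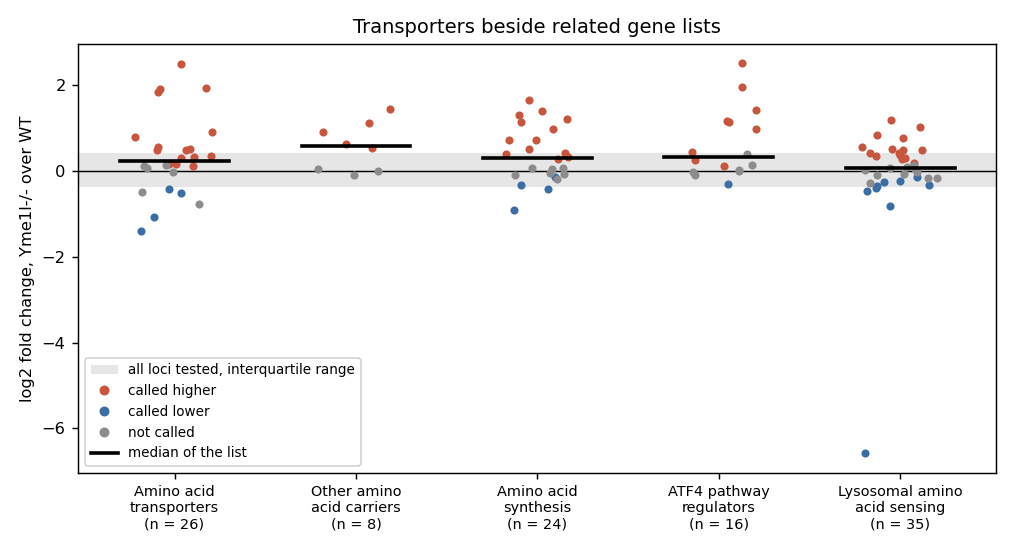
Log2 fold change (y axis, Yme1l-/- over WT) of each tested locus of the transporter set and of 4 related lists, coloured by call, with the median of each list as a bar and the interquartile range of all 13867 loci in grey. The list medians run from 0.08 for lysosomal amino acid sensing to 0.58 for other amino acid carriers. The lowest point is Rragb, which had at most 5 fragments in a Yme1l-/- library and passed the count filter only through the WT libraries.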

How the data were processed

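Poly(A)-selected RNA of 3 WT and 3 Yme1l-/- cultures was sequenced as stranded paired-end libraries. The authors mapped the reads with HISAT2 2.0.4 to GRCm38 (mm10), assembled loci with StringTie 1.3.3 on Ensembl annotation and deposited raw fragment counts per locus. The treatment of strand and of multi-mapped fragments in counting is not stated. The deposited comparison table (Cuffdiff 2.2.1) holds FPKM as 1 combined value per genotype, used here, and the authors' fold changes, p-values and q-values, not used.

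Genotypes were compared with edgeR 4.0.16 in R 4.3.3 (filterByExpr, minimum count 10, TMM scaling, robust quasi-likelihood test, two-sided, Benjamini-Hochberg over 13867 loci, adjusted p under 0.05 called). The test was also run on simulated counts in which few loci changed, equally in both directions. Most loci were called in these data, so that run does not show that the scaling or the calls hold here. Fragments were not collapsed by molecule. The labels number the cultures and name no batch, so p-values measure only the spread between these cultures. The transporter set and the lists were chosen with earlier results of these data known. Every tested member is named. Values per library are given for members called with at least 2-fold change or with a mean of at least 50 CPM, and for some others chosen after their values were seen. Up to 3 called genes with the largest changes are named per list. Alternatives were RLE and upper-quartile scaling, DESeq2 1.42.0, no count filter or at least 10 counts in every library, the replicate number as a block, removal of chromosome medians, and leaving out each culture.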

Additional observations from a re-analysis of the deposited data

How the results depend on the processing

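Of 335 values of tested members under the 13 alternative fits, 309 kept direction and call. With the direction kept, 11 lost the call and 6 gained it. The other 9 changed sign, and of these Slc1a3 with the chromosome medians removed lost its call as well (adjusted p = 0.428). Direction and call were both kept by 12 of the 26 members in every fit that held them. Slc7a4, Slc7a7 and Slc43a1 gave no value where at least 10 counts were required in every library. Changes of sign came with the chromosome medians removed for Slc38a1 (-0.43), Slc38a2 (-0.24), Slc38a10 (-0.24) and Slc1a3 (-0.10), with upper-quartile scaling for Slc38a4 (0.0345), and with a culture left out for Slc7a7 (-0.024 without WT replicate 1, -0.017 without WT replicate 2, -0.17 without Yme1l-/- replicate 3, the range being -0.17 to 0.51) and Slc7a11 (-0.0093 without WT replicate 3). The members called higher numbered 11 with the chromosome medians removed, 15 to 17 in the other fits and 15 to 16 with a culture left out. Those called lower numbered 7 with the chromosome medians removed, and 3 to 6 with a culture left out. The median of the members was 0.16 without a count filter, 0.30 with at least 10 counts in every library, 0.15 with the chromosome medians removed, and 0.23 to 0.31 with a culture left out. The filters change which members are tested; the cause of the chromosome shifts was not tested. With the chromosome medians removed 1 other amino acid carrier and 3 ATF4 regulators were called lower, and without a count filter 1 other carrier was. Over all loci the calls ran from 8513 to 10051.

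With the replicate number as a block 16 members were called higher, 5 lower and 9794 loci in all. Deviations of same-numbered cultures correlated at 0.14, -0.09 and 0.05. These values do not settle whether the numbers pair the samples. Depth limits Slc7a7, Slc7a4 and Slc3a1, which had at most 47 fragments in any library.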
